A study of Mus musculus with 5 samples.

Results

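The loci of 7 genes of the cardiac sarcomere (Myh6, Myh7, Mybpc3, Ttn, Actc1, Tpm1 and Tnnt2) held 84 of the 21703 regions in the 3 occupancy lists of adult mouse heart, 45 of them of Tbx3, 31 of Nkx2-5 and 8 of Gata4. A region belonged to a locus when it overlapped, by at least 1 bp, a fixed window of mm9 that holds the gene with about 100 kb on each side. The adjoining genes Myh6 and Myh7 share a window, so 7 genes gave 6 windows, 1650 kb in all. The windows follow the genes' positions and use no measured value. Genes and windows were, however, chosen with earlier results of these data known.

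The lists come from chromatin immunoprecipitation followed by sequencing (ChIP-seq) of whole heart of adult FVB/N mice, in a series of 5 libraries with 1 library for each target. Tbx3 was profiled with antibody A-20 in hearts of the genotype Myh6-MCM;CAG-CAT-TBX3, in which a Cre fusion under the Myh6 promoter opens a TBX3 transgene under the CAG promoter in cardiomyocytes. Nkx2-5 (antibody N-19) and Gata4 (antibody C-20) were profiled in wild-type hearts without either transgene. The libraries of p300 in wild-type hearts and of the Tbx3 antibody in Myh6-MCM hearts, the control, were not analysed here. With 1 library a factor there is no replicate check, no test between factors or loci was possible, and factor and genotype cannot be told apart for Tbx3. The lists give positions only, so read depth and the strength of each region are unknown, and list length (13242 Tbx3, 6705 Nkx2-5 and 1756 Gata4 regions) cannot be separated from depth or threshold.

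The sarcomere is the contractile unit of striated muscle, in which myosin of the thick filaments pulls on actin of the thin filaments. Tropomyosin and the troponin complex switch the thin filament on with calcium, and titin runs from Z-disc to M-line and acts as a spring. Nkx2-5, a homeodomain factor, and Gata4, a zinc-finger factor, are known as activators of heart muscle genes, whereas Tbx3 is a T-box repressor known for holding back the working-muscle programme in the conduction system.

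The following promoters show the letters that the 3 factor families are known to prefer. They are the 250 bases before the RefSeq start (GRCm38.p6) of the genes, among the 7, that hold at least 1 of the cores searched on both strands: GGTGT for T-box factors, AAGTG for NK2 homeodomain factors and GATAA for GATA factors. Each is written 5′ to 3′ on the gene's strand, and capitals mark the matches, on either strand.
Myh6, chr14:54966608-54966857, minus strand: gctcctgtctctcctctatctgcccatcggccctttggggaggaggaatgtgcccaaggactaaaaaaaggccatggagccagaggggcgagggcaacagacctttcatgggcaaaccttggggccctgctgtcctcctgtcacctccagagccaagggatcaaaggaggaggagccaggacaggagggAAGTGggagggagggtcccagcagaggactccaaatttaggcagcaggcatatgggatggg
Myh7, chr14:54994627-54994876, minus strand: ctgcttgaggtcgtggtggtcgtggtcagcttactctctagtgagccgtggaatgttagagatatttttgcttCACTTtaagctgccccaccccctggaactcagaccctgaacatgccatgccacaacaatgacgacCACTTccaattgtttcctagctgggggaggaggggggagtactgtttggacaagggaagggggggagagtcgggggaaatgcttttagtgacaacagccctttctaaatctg
Mybpc3, chr2:91117894-91118143, plus strand: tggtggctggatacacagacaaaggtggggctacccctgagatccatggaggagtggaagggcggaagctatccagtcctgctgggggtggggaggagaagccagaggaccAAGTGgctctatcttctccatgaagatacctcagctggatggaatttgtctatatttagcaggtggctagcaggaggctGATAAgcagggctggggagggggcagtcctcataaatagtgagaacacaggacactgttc
Tnnt2, chr1:135836084-135836333, plus strand: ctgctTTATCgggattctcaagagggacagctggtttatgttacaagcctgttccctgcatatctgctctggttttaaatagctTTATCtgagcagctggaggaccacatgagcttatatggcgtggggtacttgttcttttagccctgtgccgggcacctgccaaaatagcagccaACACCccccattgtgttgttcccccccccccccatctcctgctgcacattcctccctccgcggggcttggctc

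Myh6 had a single AAGTG at -61 to -57, counted back from the base before the start. Myh7 had 2 in reverse complement, at -177 to -173 and -112 to -108, the first of them inside the longer form TNAAGTG. Mybpc3 had AAGTG at -139 to -135 and GATAA at -60 to -56, and Tnnt2 had GATAA in reverse complement at -245 to -241 and -166 to -162 and GGTGT in reverse complement at -73 to -69. No match overlapped another, and the promoters of Ttn, Actc1 and Tpm1, in the same 250 bases, held none of the cores. Counted by gene on its first listed start, 1 of 7 promoters held GGTGT, 3 held AAGTG and 2 held GATAA, where 36.2%, 40.7% and 22.6% of all 32851 promoter entries hold them. With 7 genes, no difference from these shares can be read. Among 20 other sarcomere genes, of which 16 had an entry, 6 held GGTGT, 6 held AAGTG and 7 held GATAA. The sequences are of another build than the region lists, so no region was placed on a promoter.

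All 3 factors had at least 1 region in each of the 6 windows, at densities above their autosomal means. For Gata4 a single region in a window is enough for that (0.208 per 100 kb at Ttn, the longest window). Tbx3 had 2.73 regions per 100 kb over the windows (95% interval 1.99 to 3.65), against 0.551 on autosomes, a ratio of 4.95 (3.61 to 6.62). Nkx2-5 had 1.88 per 100 kb (1.28 to 2.67), against 0.277 on autosomes, a ratio of 6.79 (4.61 to 9.64). Gata4 had 0.485 per 100 kb (0.209 to 0.955), against 0.0728 on autosomes, a ratio of 6.66 (2.87 to 13.1). The ratios of the 3 factors have overlapping intervals. These are exact Poisson intervals and cover counting error only, and since regions of a list lie in groups they are too narrow. Much of the autosomes held no region: against the 7498 tiles of 100 kb with at least 1 region of any list, the ratios were 1.55 for Tbx3, 2.13 for Nkx2-5 and 2.09 for Gata4.

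**Figure D1:**
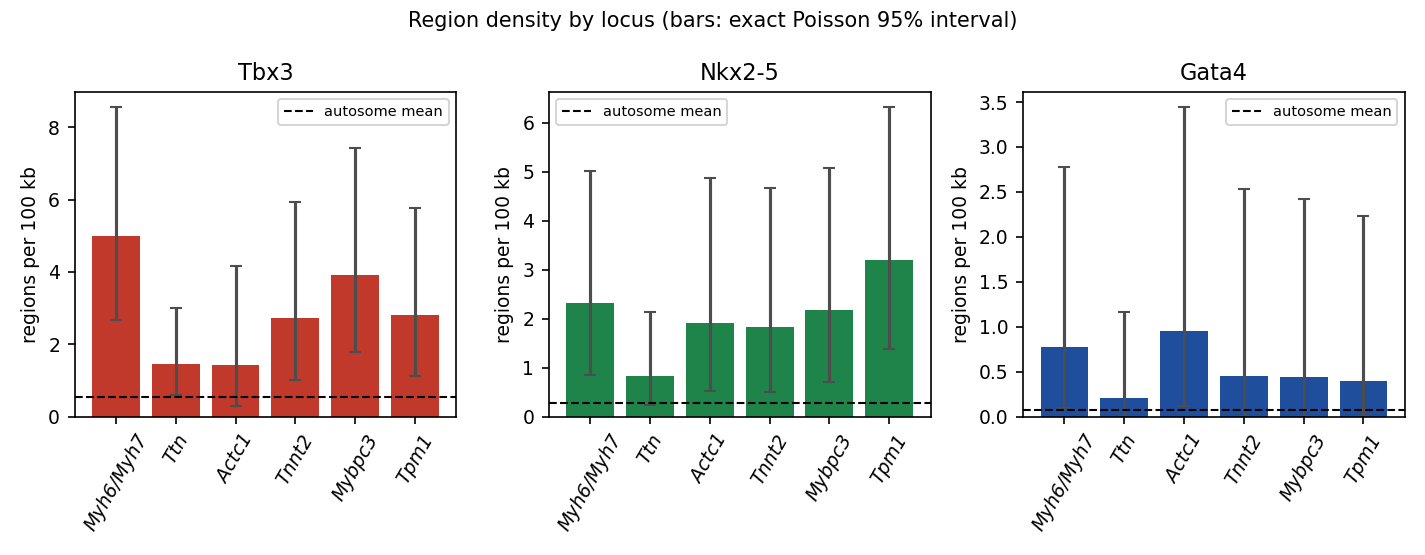
Regions per 100 kb (vertical axis, a separate scale for each factor) in the 6 windows, with exact Poisson 95% intervals as error bars and the autosomal mean as a dashed line. Every bar stands above its dashed line, for which a single Gata4 region in a window is enough. The intervals of Tbx3 at Actc1, Nkx2-5 at Ttn, and Gata4 at Ttn, Tnnt2, Mybpc3 and Tpm1 reach below the line. Within a factor all intervals overlap. The highest bars, Tbx3 at Myh6 and Myh7 (5.00) and Nkx2-5 at Tpm1 (3.20), lose that rank in the wider 50% of each list.

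By locus, the number of Tbx3 regions ranged from 3 to 13. The window of Myh6 and Myh7 had 13 Tbx3 regions (5.00 per 100 kb, 95% interval 2.66 to 8.55) and Mybpc3 had 9 (3.91, 1.79 to 7.43). Tpm1 followed with 7 (2.80, 1.13 to 5.77) and Tnnt2 with 6 (2.73, 1.00 to 5.94). Ttn with 7 (1.46, 0.586 to 3.00) and Actc1 with 3 (1.43, 0.295 to 4.17) were lowest. No neighbours in this order differed beyond counting error, and the intervals of the first and the last overlap too. For the Tbx3 count at Myh6 and Myh7, the part of the Myh6 promoter in the Myh6-MCM transgene was not tested. For Nkx2-5 the order was another one: Tpm1 had 8 regions (3.20 per 100 kb, 1.38 to 6.31), Myh6 and Myh7 6 (2.31, 0.847 to 5.02), Mybpc3 5 (2.17, 0.706 to 5.07), Actc1 4 (1.90, 0.519 to 4.88), Tnnt2 4 (1.82, 0.495 to 4.66) and Ttn 4 (0.833, 0.227 to 2.13). Nkx2-5 had 1 region more than Tbx3 at Tpm1 and at Actc1, a difference within counting error. At Tpm1 it turned to 4 Nkx2-5 and 6 Tbx3 regions in windows shrunk by 50 kb on each side and to 3 and 5 in the wider 50% of each list, and joining regions of a list across gaps of 1 kb gave 7 of each. At Actc1 the wider 50% gave 3 of each. The first place in either order depended on these choices too. Nkx2-5 was densest at Myh6 and Myh7 in the shrunk windows (3.75 per 100 kb, against 2.67 at Tpm1) and at Mybpc3 in the wider 50% (1.74, against 1.20 at Tpm1). With lists cut to equal size by keeping the widest regions, it was densest at Actc1 (1.43, against 0.800 at Tpm1). Tbx3 was densest at Tpm1 in the wider 50% (2.00 per 100 kb, against 1.92 at Myh6 and Myh7), and at Myh6 and Myh7 under the other settings. Gata4 had 2 regions each at Myh6 and Myh7 and at Actc1, and 1 at each of the other loci.

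Set against the autosomes cut into tiles as long as each window, few tiles were as full as the myosin window. Of 9191 tiles of 260 kb, 0.740% held 21 or more regions of all lists together, the number in the window of Myh6 and Myh7. The share was 1.70% for Tpm1 with 16 regions, 1.85% for Mybpc3 with 15, 3.88% for Tnnt2 with 11, 5.51% for Actc1 with 9 and 11.7% for Ttn with 12. These shares moved with the tiles chosen. Among tiles that hold at least 1 region they were 1.50% for Myh6 and Myh7, 3.51% for Tpm1, 3.95% for Mybpc3, 8.43% for Tnnt2, 12.2% for Actc1 and 19.0% for Ttn. Windows were also cut into pieces of 100 kb from the lower border, without the remainder at the upper end. With the fullest piece set against tiles of 100 kb, the shares ran from 0.0962% for Myh6 and Myh7 to 5.44% for Ttn. Picking the fullest piece makes these shares smaller than a piece taken without regard to its count. By factor, the shares ran from 0.990% at Myh6 and Myh7 to 16.7% at Actc1 for Tbx3. They ran from 0.460% of 9561 tiles at Tpm1 to 12.2% at Ttn for Nkx2-5, and from 2.58% at Actc1 to 22.6% at Ttn for Gata4. Tiles include stretches poor in genes, and the windows were chosen around genes. In RefSeq of GRCm38, 12 other protein-coding genes lie within 100 kb of Myh6 and 10 within 100 kb of Mybpc3, against 5 for Ttn, 5 for Tnnt2, 2 for Actc1 and 2 for Tpm1. The part of gene density in these counts was not tested. Nor was the part of the Myh6-MCM transgene in the 13 Tbx3 regions at Myh6 and Myh7.

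**Figure D2:**
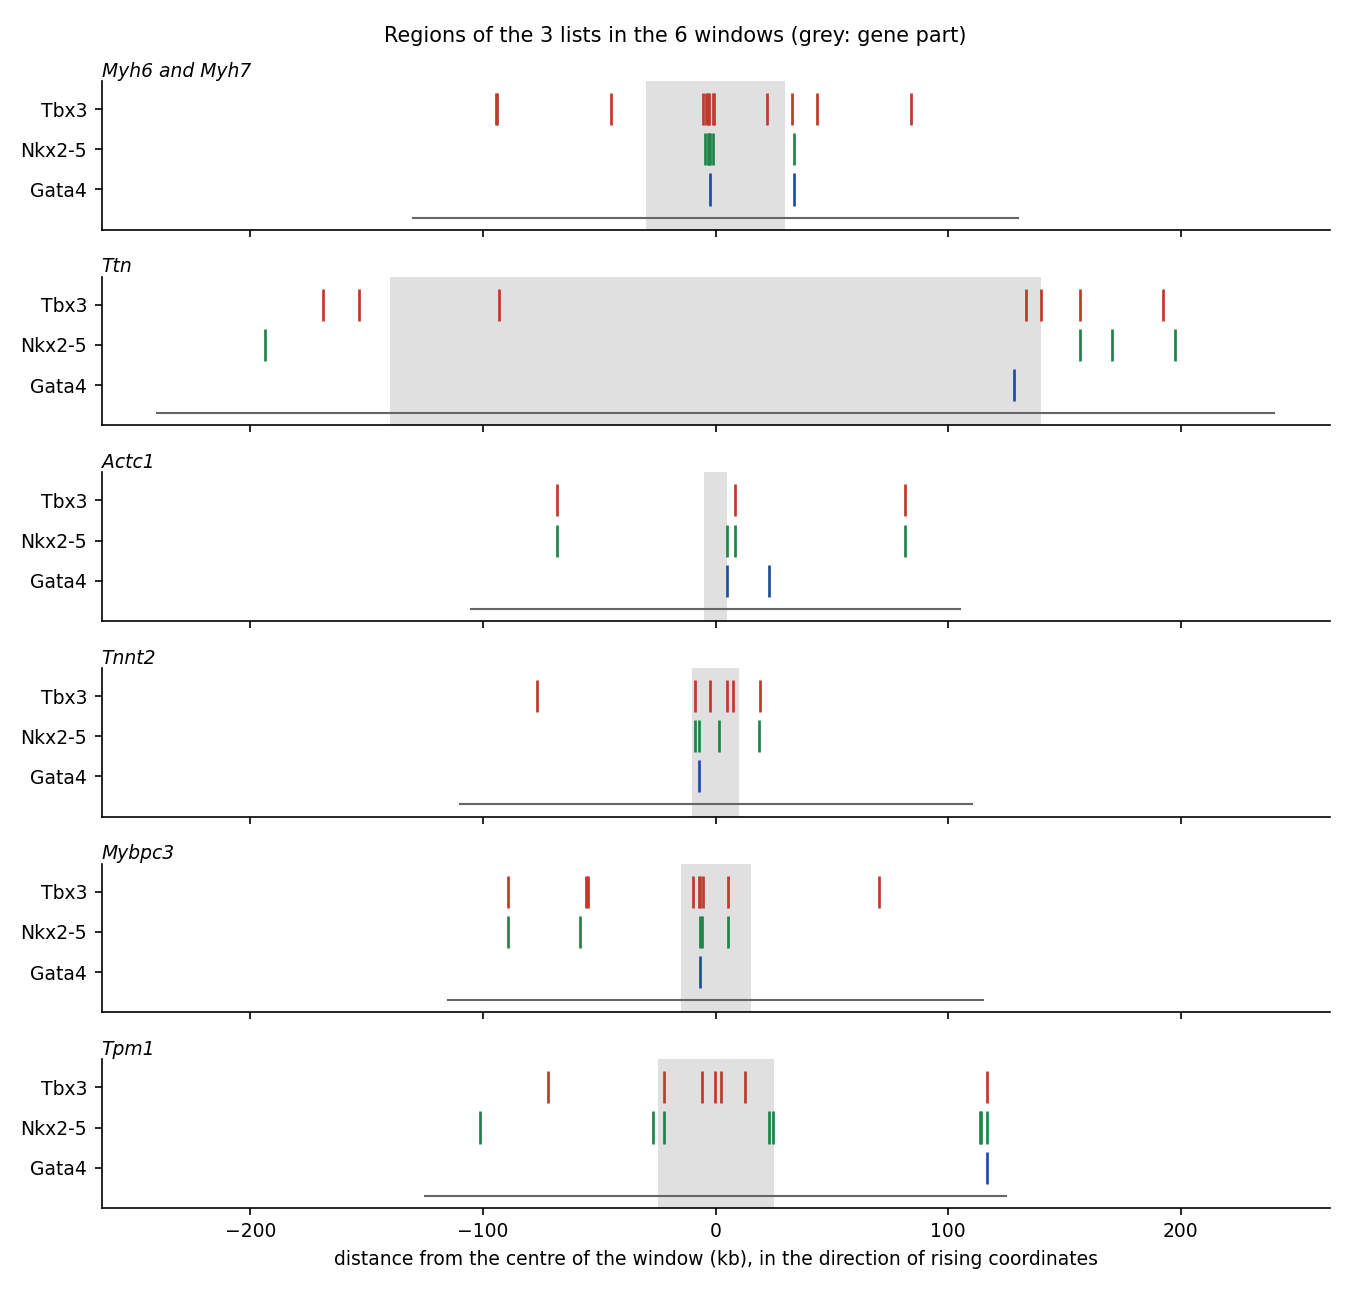
Midpoints of all 84 regions in the 6 windows, by distance from the window's centre in kb (horizontal axis), with a row for each factor. The grey band is the gene part and the thin line the window. Regions crowd into the grey band at Myh6 and Myh7, Tnnt2 and Mybpc3, and leave a gap of 221 kb at Ttn.

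Regions gathered at and near the genes, with Ttn as the exception. The window less 100 kb on each side stands here for the gene and is called the gene part. It is longer than the gene. At Tpm1 it is 50 kb and the gene 27.1 kb in GRCm38, and at Mybpc3 30 kb and 18.4 kb. A region in the gene part thus need not lie in the gene. Over all 6 windows the gene parts held 43 regions, or 9.56 per 100 kb, and the flanks 3.42 per 100 kb. In the 5 windows other than Ttn, gene parts of 170 kb held 39 of 72 regions, or 22.9 per 100 kb, and the flanks of 1000 kb held 33, or 3.30 per 100 kb. This second contrast leaves out the window whose values go the other way. By factor and over all 6 windows, the gene parts held 24 of 45 Tbx3 regions, 14 of 31 Nkx2-5 regions and 5 of 8 Gata4 regions, on 27.3% of the length. Tnnt2 had the densest gene part as drawn here, with 8 regions on 20 kb, followed by Mybpc3 with 9 on 30 kb and by Myh6 and Myh7 with 13 on 60 kb. Drawn 20 kb wider on each side, the gene part of Myh6 and Myh7 was denser (18.0 per 100 kb) than that of Tnnt2 (16.7). Tpm1 had 8 on 50 kb. Actc1, the shortest gene, had a single region on 10 kb, at the upper edge of the gene part, with a further Nkx2-5 and Tbx3 group just above it.

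In each pairing of factors the share of overlapping regions was higher at these loci than over the whole list, on small numbers and with no test of the difference. Overlap means at least 1 bp in common. Tbx3 regions met 15 of the 31 Nkx2-5 regions (48.4%, exact Clopper-Pearson 95% interval 30.2 to 66.9%), against 35.8% of the whole Nkx2-5 list. Among these 15 are 5 that lie within a single stretch of 5.01 kb at Myh6 and Myh7. Of the 45 Tbx3 regions, 15 overlapped Nkx2-5 (33.3%, 20.001 to 48.950%), against 18.3% of the whole Tbx3 list. Of the 8 Gata4 regions, 6 overlapped Nkx2-5 (75.0%, 34.9 to 96.8%), against 33.4% of the whole Gata4 list. The interval for Nkx2-5 with Tbx3 includes the share of the whole list, while those for Tbx3 with Nkx2-5 and Gata4 with Nkx2-5 begin just above it, as counting intervals that treat grouped regions as separate. Gata4 overlapped Tbx3 in 3 of 8 regions (37.5%, 8.52 to 75.5%), against 21.3% of the list. Conversely, 3 of 45 Tbx3 regions overlapped Gata4 (6.67%, 1.40 to 18.3%), against 2.92%, and 6 of 31 Nkx2-5 regions did (19.4%, 7.45 to 37.5%), against 8.90%. The last 3 intervals all include the share of the list.

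Counting any other list, 33.3% of the Tbx3 regions were shared, against 19.6% of the list. The same share was 58.1% for Nkx2-5 (18 of 31), against 41.4%, and 75.0% for Gata4, against 43.1%. Regions overlapping both other lists numbered 3 for each factor, which is 6.67% of the Tbx3 regions, against 1.67% of the list, 9.68% of the Nkx2-5 regions, against 3.30%, and 37.5% of the Gata4 regions, against 11.7%. Joined wherever they overlap, the 84 regions made up 62 places, of which 3 belonged to all 3 factors, 11 to Tbx3 and Nkx2-5 and 3 to Nkx2-5 and Gata4. Places of all 3 factors were thus 4.84% of the places at these loci, against 1.18% of the 18483 places over the whole lists, places of Tbx3 and Nkx2-5 17.7%, against 11.7%, and places of Nkx2-5 and Gata4 4.84%, against 1.99%. No place belonged to Tbx3 and Gata4 without Nkx2-5, a pattern that makes up 0.855% of places over the whole lists, so that a count of 0 among 62 is near the background. Of the other places 30 were of Tbx3, 13 of Nkx2-5 and 2 of Gata4. By locus, 4 of 5 places were shared at Actc1, 5 of 14 at Myh6 and Myh7, 3 of 10 at Mybpc3, 2 of 9 at Tnnt2, 2 of 13 at Tpm1 and 1 of 11 at Ttn. Tpm1 (15.4%) and Ttn (9.09%) did not exceed the share that the shared patterns above make up together over the whole lists. Numbers per locus are too small to rank the loci.

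**Figure D3:**
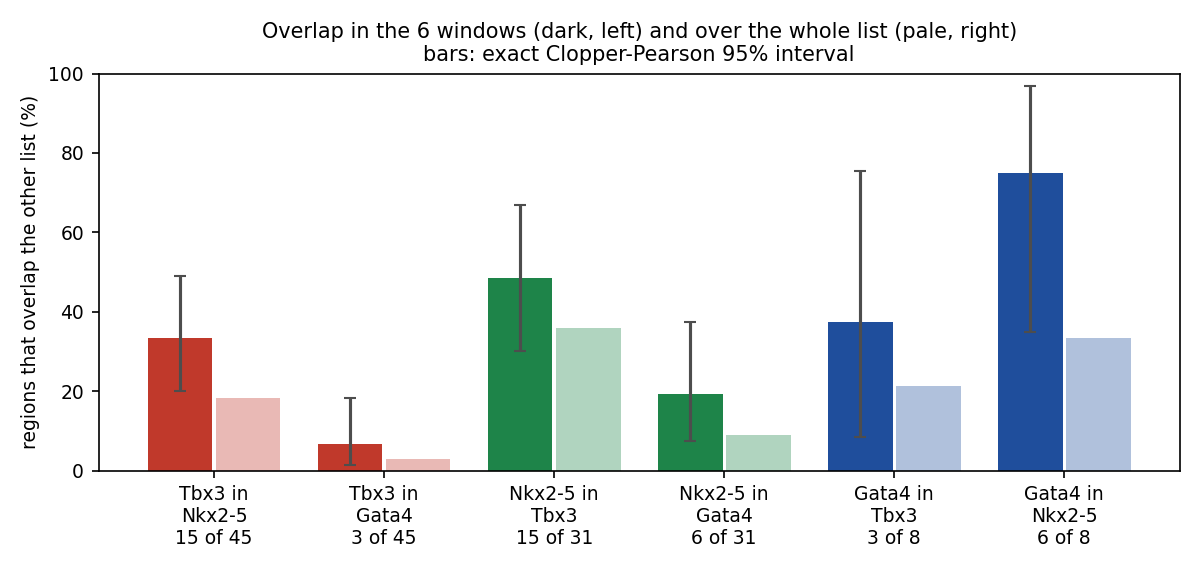
Percentage of regions of a factor that overlap another list by at least 1 bp (vertical axis), for the regions in the 6 windows (dark, with exact Clopper-Pearson 95% intervals) and for the whole list (pale). Each dark bar is higher than its pale neighbour, and 4 of the 6 intervals reach down to the pale bar's height.

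Myh6 encodes alpha-myosin heavy chain, the main motor of the adult mouse ventricle, and Myh7 encodes beta-myosin heavy chain, the form of the fetal ventricle and of slow skeletal muscle. Their window (chr14:55460001-55720000) held the fullest domain of all 6, when regions of the 3 lists were joined across gaps of 10 kb or less: 12 regions within 5.01 kb, 6 of Tbx3, 5 of Nkx2-5 and 1 of Gata4, at chr14:55584455-55589460. Of all 12114 domains of the genome, 23 (0.190%) held 12 or more regions. It made 6 places, 4 of them shared. At chr14:55587167-55587406 a Tbx3 region overlapped Nkx2-5 at 55587195 to 55587625 and Gata4 at 55587268 to 55587482, so that the Gata4 region lay wholly inside the Nkx2-5 region. Next to it, the widest Tbx3 region of any window (465 bp, 55586553 to 55587017) took in 175 of the 177 bp of an Nkx2-5 region at 55586843 to 55587019, and overlapped another at 55586470 to 55586588 by 36 bp. Nkx2-5 and Tbx3 also coincided at 55585463 to 55585722, where the Tbx3 region was wholly inside, and at 55588931 to 55589140, where it was as well. The Nkx2-5 region of 431 bp is among the widest 0.552% of its list, and the Tbx3 region of 465 bp among the widest 0.559%.

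In the same window a second domain of all 3 factors lay higher, at chr14:55622836-55633559, where Gata4 (55623398 to 55623639) and Nkx2-5 (55623539 to 55623651) overlapped by 101 bp. A Tbx3 region of 294 bp ended there at 55623129, clear of the overlap. Every Nkx2-5 and Gata4 region of the window was shared, while 9 of its 13 Tbx3 regions were not. Over the whole lists, 41.4% of Nkx2-5, 43.1% of Gata4 and 19.6% of Tbx3 regions overlap another list. Most Tbx3 regions are thus unshared there too. With regions of a list joined across gaps of 1 kb, the window kept 9 Tbx3 and 3 Nkx2-5 regions. In RefSeq of GRCm38, Myh6 (26.1 kb) and Myh7 (23.9 kb) lie on the minus strand 2.67 kb apart, with Myh6 at the lower coordinates, and host the microRNA genes Mir208a and Mir208b. The domain of 12 regions began 24.5 kb above the lower edge of the gene part. Hearts of the Tbx3 library also carry the Myh6 promoter in the Myh6-MCM transgene, whose reads cannot be told apart from those of the locus. Its part in the Tbx3 regions here was not tested.

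**Figure D4:**
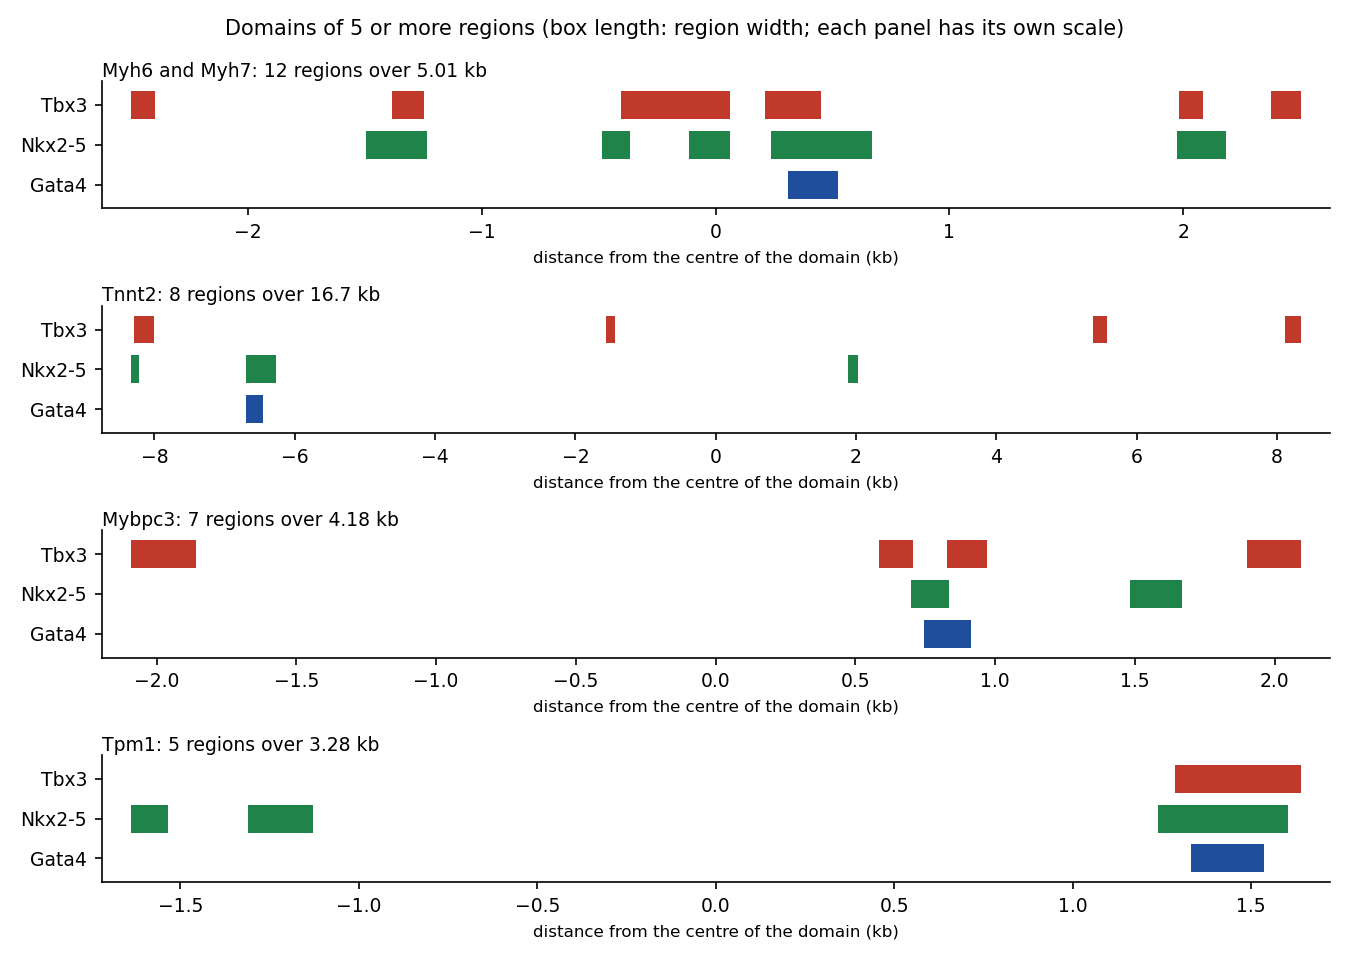
The 4 domains with 5 or more regions, with each region drawn as a box of its width by distance from the domain's centre in kb (horizontal axis, a separate scale in each panel) and a row for each factor. Boxes of all 3 factors stand above each other at Myh6 and Myh7 and at Tpm1. At Mybpc3 the Gata4 box meets both other factors, whose boxes share only 7 bp, and at Tnnt2 it meets Nkx2-5 only.

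Mybpc3, which encodes cardiac myosin-binding protein C of the thick filament, had the next place of all 3 factors (window chr2:90850001-91080000). Gata4 at chr2:90958144-90958311 overlapped Nkx2-5 (90958098 to 90958231) by 88 bp and Tbx3 (90958225 to 90958370) by 87 bp. Nkx2-5 and Tbx3 themselves met there by only 7 bp, and a further Tbx3 region (90957982 to 90958104) touched the other end of the Nkx2-5 region by 7 bp as well. The place was thus a row of adjoining regions and not a stack as at Myh6. The domain around it, chr2:90955307-90959491, held 7 regions on 4.18 kb, a number reached by 1.97% of domains. Nkx2-5 and Tbx3 coincided more closely in the gene part at 90970364 to 90970589 (157 bp) and below it at 90875601 to 90875780, where the Tbx3 region was wholly inside. The widest Tbx3 region of the window (295 bp, 90910172 to 90910466) stood alone. The upper flank held a single region, of Tbx3. In GRCm38 the coding genes next to Mybpc3 are Spi1 and Madd.

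Ttn encodes titin, the elastic giant that runs from Z-disc to M-line. It is by far the longest gene here (279 kb in GRCm38) and its window (chr2:76440001-76920000) was the emptiest for its length, with 2.50 regions per 100 kb (1.29 to 4.37). Its gene part held 4 regions on 280 kb (1.43 per 100 kb), none of them of Nkx2-5, and its flanks held 8 on 200 kb (4.00 per 100 kb), which reverses the order of the other loci. A stretch of 221 kb (76587056 to 76808356) had no region of any list, whereas 8 of the 12 regions lay in the 112 kb above it. In GRCm38 the gene is on the minus strand, so its start is at its higher coordinates. The lone shared place, Tbx3 (76836493 to 76836704) with Nkx2-5 (76836450 to 76836578), lay beyond the upper edge of the gene part. Gata4 had 1 region, at 76808357 to 76808482, which overlapped no other. The widest Tbx3 region (250 bp, 76526337 to 76526586) and the widest Nkx2-5 region (169 bp, 76850124 to 76850292) were both alone. No domain of the window held all 3 factors, and none held more than 3 regions.

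Actc1, the gene of cardiac alpha-actin of the thin filament, had few regions but the largest shared part, on only 5 places (window chr2:113770001-113980000). All 3 Tbx3 regions and all 4 Nkx2-5 regions were shared, against 19.6% and 41.4% of the whole lists, on very small numbers. Tbx3 and Nkx2-5 coincided at chr2:113806428-113806775 with an overlap of 177 bp, at 113883085 to 113883354 with 94 bp, and at 113956474 to 113956669, where the Nkx2-5 region was wholly inside. The first and the last of these lie far out in the flanks on either side. Gata4 met Nkx2-5 at 113879932 to 113880191, where they overlapped by 49 bp, 9.93 kb above the lower edge of the 10 kb gene part. Another Gata4 region, at 113897830 to 113897943, was alone. The domain at 113879932 to 113883354 joined all 3 factors on 3.42 kb with no place common to the 3. The widest region of the window was the Nkx2-5 region of 319 bp at 113806428 to 113806746, in the lower flank. Gjd2 and Aqr are the next coding genes in GRCm38, and the part of these neighbours was not tested.

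Tpm1, the gene of alpha-tropomyosin of the thin filament, had 8 Nkx2-5 and 7 Tbx3 regions (window chr9:66770001-67020000). Its place of all 3 factors was far from the gene part: at the upper end of the window, Gata4 (chr9:67011705-67011909) lay wholly within both the Tbx3 region (67011658 to 67012011) and the Nkx2-5 region (67011612 to 67011975). The centres of Gata4 and Nkx2-5 were 13.5 bp apart and those of Gata4 and Tbx3 27.5 bp. The Nkx2-5 region of 364 bp is among the widest 1.48% of its list and the Tbx3 region of 354 bp among the widest 2.58%. The domain holding them, with 2 more Nkx2-5 regions, began 89.1 kb above the last region of the gene part, with none between, and ended 7.99 kb below the window's border. In GRCm38 the next coding gene at higher coordinates is Tln2, outside the 100 kb taken around Tpm1. Within the gene part Tbx3 had 5 regions, of which 1 (66872811 to 66873027) took in an Nkx2-5 region, with centres 2 bp apart. The others were spread from 66888970 to 66907894 and overlapped none, and 2 Nkx2-5 regions near the upper edge, at 66917719 to 66917843 and 66919467 to 66919603, were alone too.

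Tnnt2 encodes cardiac troponin T, which ties the troponin complex to tropomyosin (window chr1:137630001-137850000). Its domain at chr1:137730939-137747610 held 8 regions on 16.7 kb, 4 of Tbx3, 3 of Nkx2-5 and 1 of Gata4, a number reached by 1.18% of domains. The widest Nkx2-5 region of any window (436 bp, 137732576 to 137733011, among the widest 0.522% of the list) held the Gata4 region (137732580 to 137732818) in full, with no Tbx3 region at this place. A Tbx3 region of 284 bp (137730981 to 137731264) overlapped another Nkx2-5 region (137730939 to 137731057) by 77 bp. It lay below that place, near the lower edge of the gene part. The other 3 Tbx3 regions and the third Nkx2-5 region of the domain were spread over the rest of the gene part and met no other list. In GRCm38 the gene is on the plus strand, with its start at its lower coordinates. Beyond 137759138 the window was empty for 90.9 kb. Tnni1, a troponin gene of slow muscle and fetal heart, is among the 5 coding genes within 100 kb in GRCm38.

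Across the loci, 6 of 32 domains (18.8%) held all 3 factors, against 3.98% of all domains, and 4 of 32 held 5 or more regions, against 4.77%. The 4 fullest domains held 32 of the 84 regions. The windows were drawn around genes that were chosen with earlier results of these data known. A domain of many regions is also more likely to hold all 3 factors. Tbx3 and Nkx2-5 regions here were about as wide as their lists, with a median of 152 bp for Tbx3, against 147 bp over the list, and of 151 bp for Nkx2-5, against 142 bp. The 8 Gata4 regions had a median of 186 bp, against 149 bp. In 16 overlapping pairs of Nkx2-5 with Tbx3, the median distance between centres was 85 bp (2 to 256 bp), against 38.5 bp over all 2445 pairs of the lists. The 6 pairs of Gata4 and Nkx2-5 had a median of 69.8 bp (13.5 to 105.5 bp), against 46 bp, and the 3 pairs of Gata4 and Tbx3 one of 70 bp, against 65.2 bp. The closest pair of centres (2 bp) was at Tpm1 and the farthest (256 bp) in the crowded domain of Myh6 and Myh7, where a wide Tbx3 region overlaps more than 1 Nkx2-5 region.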

How the data were processed

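Region lists of Tbx3, Nkx2-5 and Gata4, 1 library each and grouped by target from the labels, were read as deposited by the authors: a chromosome, a start and an end per region, with no score, count or read number. Positions are in mm9, a build named in the submitters' processing notes. How reads were aligned and regions called, at which depth and threshold and with what control, is not given in the sources used here. Starts were taken as counted from 0 (BED) and are printed counted from 1. The windows, genes and comparisons were chosen with earlier results of these data known. Overlap was at least 1 bp, a domain is a run of regions, of any list, with gaps of at most 10 kb, and tiles covered the span of the lists on 19 autosomes. Poisson and Clopper-Pearson 95% intervals are exact and cover counting error only. Regions with coordinates are those shared between factors, the widest in a window and those bounding a described stretch, the last chosen after their positions were seen. Gene order, strand, lengths and promoters are from RefSeq of GRCm38.p6, no position was converted between builds, and the 50 bases after each start were left out. Overlap counting was tested on simulated data against direct comparison. Python 3.11.15, pandas 2.3.3 and scipy 1.17.1 were used.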

Additional observations from a re-analysis of the deposited data

How the results depend on the processing

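Every count here comes from 1 library without depth. No paired analysis was possible because each factor has a single library, and leaving out replicates was not possible for the same reason. Of the 70 alternative values of the main counts and ratios, 54 stayed within 1.5 times or within the counting interval. Counts fell where lists were shortened, as fewer regions enter. The wider 50% of each list left 23 Tbx3, 17 Nkx2-5 and 5 Gata4 regions in the windows, with 7 Nkx2-5 regions shared with Tbx3 and 3 Gata4 regions shared with Nkx2-5. Equal list sizes, made by keeping the 1756 widest regions of each list, left 9 Tbx3 and 11 Nkx2-5 regions. Nkx2-5 then outnumbered Tbx3, and 2 Nkx2-5 regions were shared with Tbx3. List length and width change together in this setting. Ratios against tiles of 100 kb that hold a region were 1.55 for Tbx3, 2.13 for Nkx2-5 and 2.09 for Gata4. Domains of 5 or more regions numbered 2 with gaps of 2 kb and 8 with gaps of 20 kb. The longer T-box motif GGTGTNA was in 0 of the 7 promoters, the longer NK2 motif TNAAGTG in 1 of them and the longer GATA motif AGATAA in 1 of them. Windows shrunk or extended by 50 kb, stricter and looser overlap, and gene parts drawn 10 or 20 kb wider on each side kept the totals over the 6 windows within 1.5 times. Among 108 values for single loci 43 moved, among them the Gata4 region of Tpm1, which falls outside the window shrunk by 50 kb.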

Other observations

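Just outside the 6 windows, 9 of the 12 borders had a region of some list within 100 kb, and 4 within 20 kb. The nearest was a Tbx3 region 4.17 kb below the window of Tnnt2 (chr1:137625643-137625831). Above the window of Actc1 the nearest region was 273 kb away, and below it 101 kb away. Next above the shared place at the upper end of the Tpm1 window was a Tbx3 region at chr9:67039223-67039472, 19.2 kb beyond the border.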
